A study of Mus musculus with 247 samples.

Results

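Open chromatin at promoters was examined in RAW264.7 cells, a mouse macrophage line, with and without a knockout of GPS2. The sites are the ATAC-seq peaks whose centre lies within 1000 bp of a transcription start in the merged peak table of control and knockout cells: 11732 of 73206 sites, belonging to 11300 named genes, with 10 sites that carry no gene symbol. The GPS2 KO cells were made by CRISPR and were untreated, with 3 ATAC-seq libraries and 4 poly(A) RNA-seq libraries. They were set against untreated CRISPR control cells in ATAC-seq (3 libraries; the protocol also calls them WT) and untreated WT cells in RNA-seq (4 libraries). The strain is given as BALB/c. The ATAC-seq libraries came from replicate wells seeded at 1 time, and no label names separate clones, so the p-values measure the spread between these libraries and a difference between clones cannot be told apart from the loss of GPS2. PU.1 and JunB ChIP-seq of the same untreated genotypes served as a second readout. The comparison asks where the loss of GPS2 changed accessibility at gene starts, and how that relates to the RNA of the gene.

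GPS2 is a subunit of the nuclear corepressor complex with NCoR, SMRT, TBL1 and the deacetylase HDAC3, which is recruited by transcription factors and restrains inflammatory genes in macrophages. Promoters are kept free of nucleosomes, and ATAC-seq reads this openness from where the transposase Tn5 can insert. Many promoters lie in CpG islands, which tend to stay open whether or not the gene is strongly transcribed, whereas promoters poor in CpG, common among immune and other cell type-restricted genes, tend to open with expression.

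The sequences at the centres of 8 promoter sites with large changes vary in CpG content within both directions of change. Each run is 200 bases of build mm9, plus strand, with every CpG in capitals. They belong to the most changed sites whose centre touches no annotated exon or UTR. The sites that were higher in GPS2 KO cells are those of Htr1b, a serotonin receptor (chr9:81527006-81527205, in its intron, 333 bp from the start), Speg, a muscle kinase (chr1:75396437-75396636), Flt1, a receptor for vascular endothelial growth factor (chr5:148537620-148537819), and the non-coding AU022793 (chr15:39794767-39794966, in an intron). The sites that were lower in GPS2 KO cells are those of Spry2, an inhibitor of receptor tyrosine kinase signalling (chr14:106296753-106296952), Crlf2, a subunit of the receptor for thymic stromal lymphopoietin (chr5:109987091-109987290, in the first intron), Bicdl1, a dynein adaptor (chr5:116182468-116182667), and the transcription factor Klf9 (chr19:23215292-23215491). All but those of Htr1b, AU022793 and Crlf2 lie upstream of the start.
Htr1b: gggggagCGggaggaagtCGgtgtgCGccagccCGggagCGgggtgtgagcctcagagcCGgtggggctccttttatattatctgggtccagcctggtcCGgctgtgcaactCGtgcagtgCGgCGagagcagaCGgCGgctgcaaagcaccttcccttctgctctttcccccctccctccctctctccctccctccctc
Speg: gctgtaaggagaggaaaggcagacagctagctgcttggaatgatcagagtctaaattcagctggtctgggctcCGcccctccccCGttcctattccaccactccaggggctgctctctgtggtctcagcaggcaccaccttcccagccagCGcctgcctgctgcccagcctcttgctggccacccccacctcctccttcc
Flt1: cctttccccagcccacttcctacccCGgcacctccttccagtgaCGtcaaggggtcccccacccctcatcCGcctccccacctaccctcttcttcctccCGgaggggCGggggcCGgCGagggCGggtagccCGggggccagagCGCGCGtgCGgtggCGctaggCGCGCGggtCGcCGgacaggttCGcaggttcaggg
AU022793: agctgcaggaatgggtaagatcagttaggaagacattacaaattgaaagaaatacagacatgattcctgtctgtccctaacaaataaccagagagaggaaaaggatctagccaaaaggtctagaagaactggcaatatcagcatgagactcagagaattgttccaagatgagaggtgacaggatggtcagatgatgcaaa
Spry2: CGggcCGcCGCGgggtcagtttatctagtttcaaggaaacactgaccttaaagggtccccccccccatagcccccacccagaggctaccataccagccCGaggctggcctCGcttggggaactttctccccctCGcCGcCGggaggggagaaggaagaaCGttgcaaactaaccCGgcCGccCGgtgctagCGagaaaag
Crlf2: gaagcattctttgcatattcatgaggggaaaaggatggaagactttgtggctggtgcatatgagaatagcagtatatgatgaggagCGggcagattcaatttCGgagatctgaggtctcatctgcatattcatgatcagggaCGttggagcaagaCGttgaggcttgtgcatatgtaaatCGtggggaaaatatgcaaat
Bicdl1: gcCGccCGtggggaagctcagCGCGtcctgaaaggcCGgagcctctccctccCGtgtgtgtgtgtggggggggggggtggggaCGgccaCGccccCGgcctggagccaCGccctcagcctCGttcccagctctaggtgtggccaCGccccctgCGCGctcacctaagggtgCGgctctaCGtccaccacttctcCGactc
Klf9: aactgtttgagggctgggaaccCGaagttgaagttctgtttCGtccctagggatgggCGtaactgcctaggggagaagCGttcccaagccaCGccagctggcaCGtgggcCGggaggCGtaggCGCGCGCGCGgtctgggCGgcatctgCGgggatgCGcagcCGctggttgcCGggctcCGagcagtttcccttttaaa
The windows at Spry2, Bicdl1 and Klf9 hold 14, 17 and 19 CpGs, and that at Crlf2 holds 5. Among the sites that were higher, Flt1 has 20 and Htr1b 12, whereas Speg has 3 and AU022793 has 0. Over the whole site, by the rule given in the next paragraph, Htr1b counts as CpG-poor and Crlf2 as CpG-rich.

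Promoter sites were wide, bright and rich in GC. Their median width was 1156 bp, against 549 bp at the 61474 sites farther than 1000 bp from a start, and their median GC content was 58.1%, against 47.4%. By the rule of at least 50% GC and a CpG observed-to-expected ratio of at least 0.6 over the whole site, 63.9% of promoter sites were CpG-rich, against 1.51% of the distal ones. The deposited level of a site is on a log2 scale. Its median at promoter sites was 6.36 in GPS2 KO cells and 6.37 in control cells, and at distal sites 3.51 in both. Nearly all promoter sites, 10915, had been called as peaks in both genotypes, with 297 called in GPS2 KO cells only and 520 in control cells only. Of the 11300 genes, 10901 had 1 site, 379 had 2 and 20 had 3 or 4. By the table's annotation 10980 sites lie at protein-coding genes and 679 at non-coding RNAs.

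The cells expressed macrophage genes at open promoters. All 8 macrophage markers examined had a promoter site, with a median level of 7.05 in GPS2 KO cells and 6.86 in control cells, and their median RNA was 4072 reads per kilobase per 10000000 mapped reads in GPS2 KO cells and 3876 in WT cells. No marker of T cells (7), NK cells (3) or epithelium (4) had a promoter site, and 1 of 5 B cell markers (Ms4a1), 1 of 5 fibroblast markers (Pdgfra), 3 of 7 granulocyte and 4 of 5 dendritic markers did. RNA values were given for 2 T cell, 2 B cell, 3 granulocyte, 3 dendritic and 1 fibroblast marker, and for no NK or epithelial marker. These values were low, with the highest at the T cell kinase gene Lck, at 43.4 reads per kilobase in GPS2 KO cells and 20.6 in WT cells, followed by the granulocyte receptor gene Csf3r, at 28.2 in GPS2 KO cells and 4.97 in WT cells. The site of Csf3r was at 4.19 in GPS2 KO cells and 4.10 in control cells. Sites of S100a8 (6.31 in GPS2 KO cells and 6.25 in control cells), Itgax (6.15 and 6.05) and Zbtb46 (5.85 and 6.05) were at higher levels. They lay above the site of the macrophage marker Csf1r (5.44 and 5.49), and the other sites of markers of other cells lay under it. The part of other cells in the results was not tested.

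Gps2 RNA, which was lower but not absent in GPS2 KO cells, was the check of the knockout. The level of GPS2 protein was not examined here. Gps2 had 153 ± 3.54 normalised reads per 10000000 mapped reads in GPS2 KO cells and 503 ± 24.8 in WT cells (SD, n = 4 each), a log2 change of -1.71 (SE 0.054, adjusted p = 2.55e-16 by limma). Its own site, chr11:69727411-69729768, covers the start of its transcript but is centred 1067 bp downstream and so falls outside the 1000 bp limit. Levels there were 9.44, 9.99 and 9.86 in GPS2 KO libraries, against 10.00, 9.59 and 9.28 in control libraries. The groups overlapped, and the difference of 0.14 (SE 0.251) had an adjusted p of 0.821. Where in the gene the CRISPR cut lies is not given in the sources used here.

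Few promoter sites differed between the genotypes, and more of them were lower than higher in GPS2 KO cells. Bulk libraries cannot tell fewer cells with an open site from less opening per cell. At an adjusted p under 0.05 (limma on the log2 levels, Benjamini-Hochberg over all 73206 sites), 252 promoter sites were higher and 488 lower in GPS2 KO cells, 6.31% of the 11732, against 7.2% of all sites (4.04% higher and 3.16% lower). Of the distal sites 7.37% were called, 2708 higher (4.41%) and 1823 lower (2.97%). Thus 34.1% of called promoter sites were higher, against 59.8% of called distal sites. In 2406 promoter sites (20.5%, against 24.1% of all sites) the 3 GPS2 KO libraries did not overlap the 3 control libraries; this held for 239 of the 252 sites that were higher and 463 of the 488 that were lower. Differences were small, with a median of 0.28 at the sites that were higher and -0.27 at those that were lower. The deposited scale compresses changes at weak sites: the slope of the difference on the authors' deposited log2 fold change was 0.124 in the lowest of 4 equal bins of promoter sites by level and 0.778 in the highest. In the authors' deposited table, 200 promoter sites had an adjusted p under 0.05 (71 higher, 129 lower), all of them also called here.

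The split of directions followed CpG content. Of the 7492 CpG-rich promoters 94 were higher and 345 lower in GPS2 KO cells. Of the 4240 CpG-poor promoters 158 were higher and 143 lower. Distal sites gave the same contrast in counts. Of 926 CpG-rich ones 12 were higher (1.30%) and 81 lower (8.75%). Of 60548 CpG-poor ones 2696 were higher (4.45%) and 1742 lower (2.88%). With the trend of each library on GC content and site level removed, an alternative chosen after seeing the data, the counts became 148 higher and 229 lower at CpG-rich promoters and 162 higher and 125 lower at CpG-poor ones. The share of called promoter sites that were higher was then 46.7%, against 56.2% at distal sites. With each library centred on its promoter sites instead, 320 promoter sites were higher and 392 lower (44.9% higher), 122 and 279 of them CpG-rich, and 74.1% of called distal sites were higher. At CpG-rich promoters lower calls outnumbered higher ones under all 3 settings.

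**Figure D1:**
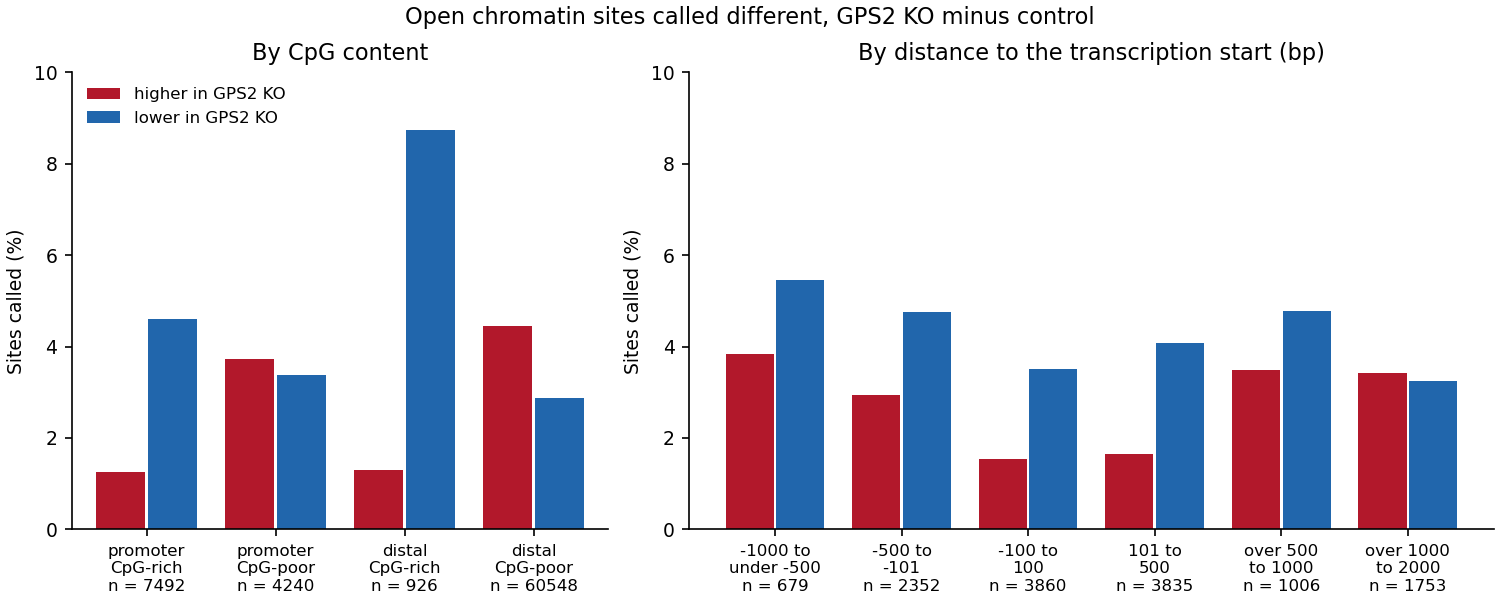
Percent of ATAC-seq sites called higher (red) or lower (blue) in GPS2 KO cells, by CpG content (left) and by signed distance to the transcription start in bp (right; the last pair takes both sides), with the number of sites under each pair of bars. CpG-rich promoter and distal sites were called lower more often than higher, and the 3860 sites within 100 bp of the start had the lowest share called.

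Weak promoters held most of the losses. With promoter sites divided by level into 4 bins of 2933, 93 (3.17%) were higher and 9.04% lower in the lowest bin, and 67 (2.28%) were higher and 61 (2.08%) lower in the highest. The sites that were lower had a median level of 4.88 in GPS2 KO cells and 5.33 in control cells, those that were higher 6.42 in GPS2 KO cells and 6.05 in control cells. Sites called as peaks in control cells only gave 123 lower and 0 higher calls of 520, and sites called in GPS2 KO cells only gave 19 higher and 0 lower of 297, and these calls come from the same libraries as the test. By position, 59 sites were higher and 135 lower among the 3860 within 100 bp of the start, and 35 were higher and 48 lower among the 1006 that lie more than 500 bp downstream. Past the limit, up to 2000 bp on either side, the counts were 60 higher and 57 lower of 1753. Non-coding promoters had 21 higher and 27 lower of 679. On the X chromosome limma called 0 sites higher and 8 lower of 338 (12 higher and 21 lower at an unadjusted p under 0.05; 0 higher and 2 lower without the trend of the spread on the mean). Over all promoter sites 2.15% were called higher and 4.16% lower. These are the shares to set beside the counts by position, at non-coding promoters and on the X chromosome. The median difference per chromosome ran from -0.032 on chromosome 13 to -0.003 on chromosome 7.

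Just inside the 1000 bp limit lie the sites of Npm3-ps1 (-0.14, at -1000 bp), Grem1 (-0.091, at 1000 bp), Fam171b (-0.18, at 999 bp) and Prxl2a (0.15, at 998 bp). Just outside lie the sites of Kbtbd11 (-0.13, at 1001 bp), Pdyn (0.017, at -1001 bp), Nrros (0.012, at 1002 bp) and Lysmd1 (0.18, at 1002 bp), each value being the difference in log2 level, GPS2 KO minus control.

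On the deposited scale the largest gain was at Htr1b. Its site had levels of 6.80, 6.70 and 6.61 in the GPS2 KO libraries, against 5.59, 5.47 and 5.64 in the control libraries, a difference of 1.13 (SE 0.081, adjusted p = 1.27e-30). All GPS2 KO libraries lay above all control libraries. Htr1b RNA was 953, 955, 946 and 926 in GPS2 KO cells, against 283, 315, 339.8 and 329 in WT cells (normalised reads per 10000000 mapped reads), a log2 change of 1.58 (SE 0.052, adjusted p = 4.70e-16) on the log2(value + 1) scale. RNA and site were both higher, with no overlap in either. Speg had site levels of 7.25, 7.30 and 7.29 in the GPS2 KO libraries, against 6.39, 6.47 and 6.57 in the control libraries, a difference of 0.80 (SE 0.076, adjusted p = 1.24e-18), and RNA of 242 ± 13.8 in GPS2 KO cells and 65.8 ± 6.88 in WT cells (SD, n = 4 each). Opcml, a cell adhesion molecule of the immunoglobulin family, had 6.28, 6.36 and 6.41 in the GPS2 KO libraries, against 5.64, 5.63 and 5.52 in the control libraries, a difference of 0.75 (SE 0.081, adjusted p = 6.09e-15), with RNA of 162 ± 7.08 in GPS2 KO cells and 8.88 ± 1.67 in WT cells. Both again separated the groups in every library.

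Receptor genes were among the other gains. Flt1 had site levels of 5.69, 5.57 and 5.52 in the GPS2 KO libraries, against 4.78, 4.97 and 4.90 in the control libraries, a difference of 0.71 (SE 0.081, adjusted p = 1.19e-13), and its RNA averaged 397 ± 5.51 in GPS2 KO cells and 40.7 ± 8.68 in WT cells. Lilr4b, a leukocyte immunoglobulin-like receptor with a close paralogue beside it, so that reads may be shared, had site levels of 5.80, 5.70 and 5.59 in the GPS2 KO libraries, against 5.01, 4.96 and 4.89 in the control libraries, and RNA of 2408 ± 125 in GPS2 KO cells and 237 ± 7.99 in WT cells. Treml2, of the family of the myeloid receptor TREM2, had 5.20, 5.08 and 5.23 in the GPS2 KO libraries, against 4.45, 4.40 and 4.63 in the control libraries, a difference of 0.68 (SE 0.079, adjusted p = 4.75e-13). None of these groups overlapped. Treml2 RNA was 49.0, 57.9, 35.3 and 53.8 in GPS2 KO cells, against 1.15, 0, 0 and 0 in WT cells, that is 350 reads in all in GPS2 KO cells against 2 in WT cells, a 172-fold higher level with an exact 95% interval for counting error of 47.4 to 1429. Rarb, a receptor for retinoic acid, had a site difference of 0.70 (SE 0.080, adjusted p = 1.87e-13) and RNA of 427 ± 25.4 in GPS2 KO cells and 92.9 ± 10.1 in WT cells. Of the 10 largest gains only Rarb and Flt1 are CpG-rich.

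Gpnmb, a transmembrane glycoprotein of lysosomes and a known target of the MiT/TFE factors, combined a large gain of the site with abundant RNA. Its site had levels of 7.23, 7.29 and 7.36 in the GPS2 KO libraries, against 6.72, 6.56 and 6.60 in the control libraries, a difference of 0.67 (SE 0.076, adjusted p = 1.25e-13). Gpnmb RNA averaged 45411 ± 996 in GPS2 KO cells and 2471 ± 64.7 in WT cells (SD, n = 4 each), a log2 change of 4.20 (SE 0.030, adjusted p = 2.86e-27). Arhgap24, a GTPase-activating protein for Rac, had a site difference of 0.68 (SE 0.078, adjusted p = 2.15e-13) with RNA of 58.8 ± 6.75 in GPS2 KO cells and 1.12 ± 0.992 in WT cells. Gm10825, a predicted gene, had 0.64 with RNA of 68.2 ± 2.40 in GPS2 KO cells and 1.53 ± 0.701 in WT cells. All 10 genes with the largest gains had higher RNA in GPS2 KO cells, and leaving out Treml2, which had 2 reads in WT cells, their log2 changes ran from 1.58 to 4.95.

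On the deposited scale, which compresses changes at weak sites, Spry2 had the largest loss of the promoters called here. Its site had levels of 5.43, 5.55 and 5.66 in the GPS2 KO libraries, against 7.08, 6.98 and 7.16 in the control libraries, a difference of -1.52 (SE 0.080, adjusted p = 5.16e-48). Every GPS2 KO library lay more than 1 log2 unit under every control library. Spry2 RNA was 1.31, 0.965, 0 and 1.18 in GPS2 KO cells, against 68.1, 69.5, 64.9 and 56.6 in WT cells, so the transcript was nearly absent in GPS2 KO cells. Crlf2 had site levels of 6.17, 6.26 and 6.29 in the GPS2 KO libraries, against 7.28, 7.24 and 7.23 in the control libraries, a difference of -1.01 (SE 0.077, adjusted p = 2.27e-27), and RNA of 20.9 ± 2.32 in GPS2 KO cells and 86.1 ± 7.58 in WT cells. Klf9 had 6.60, 6.49 and 6.71 in the GPS2 KO libraries, against 7.30, 7.45 and 7.39 in the control libraries, a difference of -0.78 (SE 0.076, adjusted p = 6.57e-18), with RNA of 25.4 ± 1.96 in GPS2 KO cells and 231 ± 9.36 in WT cells. The groups did not overlap at any of these 3 sites.

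The other large losses were at receptor, enzyme and cytoskeletal genes. Fzd8, a Wnt receptor, had a site difference of -0.88 (SE 0.081, adjusted p = 1.75e-19) and RNA of 2.62 ± 1.36 in GPS2 KO cells and 16.6 ± 3.49 in WT cells. Lpar1, a receptor for lysophosphatidic acid, had site levels of 4.26, 4.46 and 4.49 in the GPS2 KO libraries, against 5.32, 5.08 and 5.12 in the control libraries, and its RNA was 0, 0, 0 and 0 in GPS2 KO cells, against 26.5, 24.9, 27.2 and 29.5 in WT cells. No read was counted in the GPS2 KO libraries, which makes the RNA at least 68.0-fold lower when 3 reads over the group are taken as the floor. Smtn, which encodes the actin-binding smoothelin, had a site difference of -0.74 (SE 0.080, adjusted p = 5.92e-15) and RNA of 1.72 ± 0.623 in GPS2 KO cells and 30.0 ± 1.33 in WT cells. The phosphatase gene Ptpdc1 differed by -0.79, with RNA of 2.41 ± 0.767 in GPS2 KO cells and 23.7 ± 5.25 in WT cells, and Enpp4, of a family of nucleotide phosphodiesterases, by -0.74, with RNA of 31.1 ± 5.97 in GPS2 KO cells and 211 ± 20.9 in WT cells.

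Bicdl1 stood apart among the losses in its RNA. The site had levels of 4.04, 3.99 and 4.05 in the GPS2 KO libraries, against 4.94, 4.90 and 4.97 in the control libraries, a difference of -0.91 (SE 0.075, adjusted p = 7.77e-24), with no overlap. Bicdl1 RNA was 17.6, 17.4, 12.7 and 10.6 in GPS2 KO cells, against 19.6, 10.2, 10.5 and 14.5 in WT cells, overlapping between the genotypes, with a log2 change of 0.10 (SE 0.225, adjusted p = 0.713). Dpf1, a subunit of neural BAF chromatin remodelling complexes, had a site difference of -0.79 and had RNA of 67.5 ± 3.71 in GPS2 KO cells and 84.0 ± 6.35 in WT cells, a log2 change of -0.31 (SE 0.091, adjusted p = 0.00583) that was not called with all 16 RNA libraries in 1 fit. All 10 of the largest losses are CpG-rich, and all 20 of the sites with the largest gains and losses remained called with any 1 of the 6 libraries left out.

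**Figure D2:**
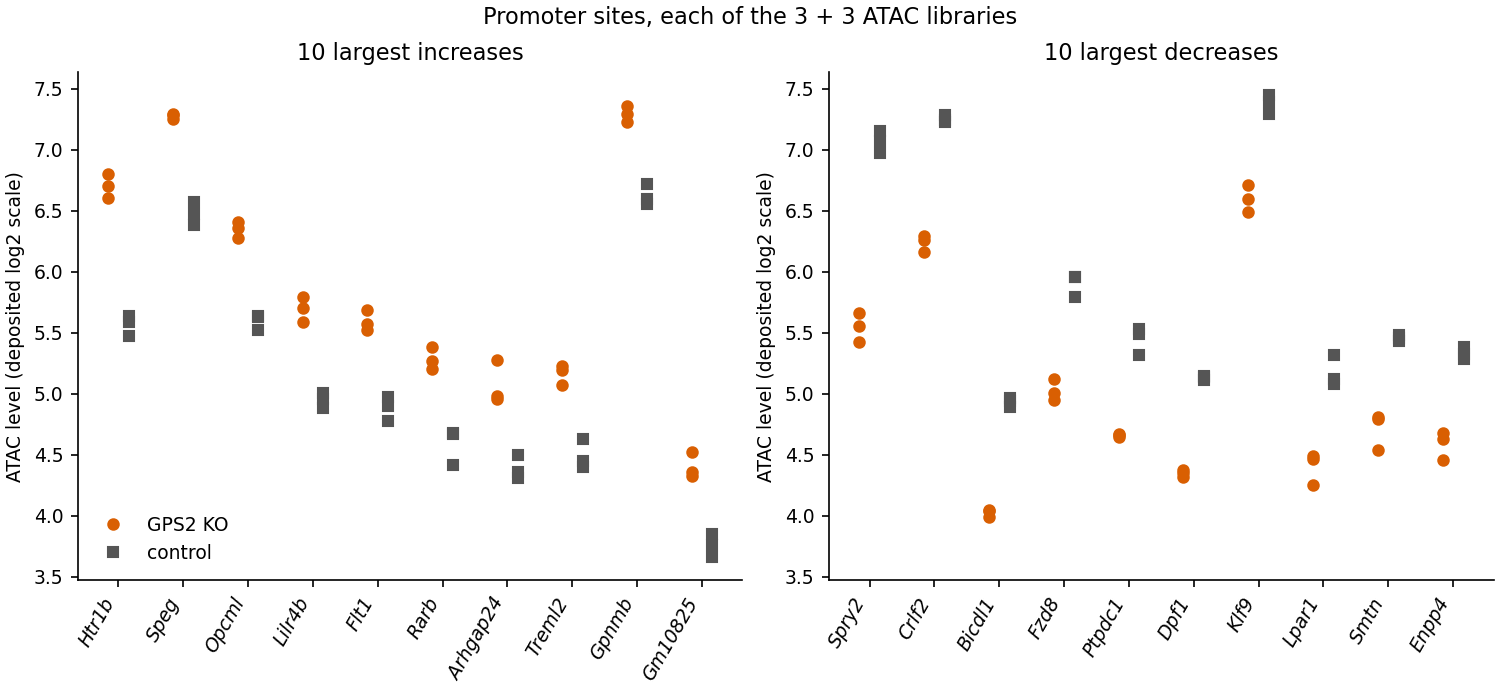
ATAC-seq level (deposited log2 scale) in each of the 3 GPS2 KO libraries (circles) and 3 control libraries (squares) at the 10 promoter sites with the largest increases (left) and the 10 with the largest decreases (right) among called sites of genes tested in RNA. In every one of the 20 sites the libraries of the genotypes are separate.

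The brightest promoters changed little. The highest mean levels were those of Sfi1, a centrosome component, Sap130 of the Sin3A complex, the zinc finger gene Zfp687, the transcription factor gene Sp1 and Rbm15, an RNA-binding protein of the m6A writer complex. Sfi1 had 10.74, 10.66 and 10.66 in the GPS2 KO libraries, against 10.62, 10.57 and 10.61 in the control libraries, and a difference of 0.089 that was not called (adjusted p = 0.328). Sap130 differed by 0.16 (adjusted p = 0.0675), Zfp687 by -0.092, Sp1 by 0.030 and Rbm15 by -0.049. None was called, although Sap130 was called higher without robust moderation, with libraries centred on promoter sites, with the trend on GC content and level removed, and with the weakest of 4 level bins of all sites left out. At the other end, the sites of Aldh1a1, Serpinb11, Fstl5, Slc14a2 and Rasl12 had levels near or under 0, and Fstl5 and Slc14a2 shared all 6 values. Of all promoter sites 6 share their values with another.

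Accessibility and RNA level went together within each genotype. Over the 10346 genes with a promoter site in the RNA table, divided into 4 bins by site level, the lowest bin had a median RNA of 14.7 reads per kilobase of transcript in GPS2 KO cells and 13.3 in WT cells. The next bins had 115.9, 146.3 and 165.4 in GPS2 KO cells and 114.9, 139.5 and 169.8 in WT cells, bins being set by the level in the same genotype, so the step lies between the lowest bin and the next. The correlation of site level and RNA per kilobase across these genes was 0.392 in GPS2 KO cells and 0.399 in control and WT cells (Spearman), as a description, since genes share libraries and base composition. Genes without a promoter site of their own name had a median of 6.09 in GPS2 KO cells and 5.96 in WT cells (4032 genes). Of the 2185 of them with enough reads for a test, 1198 had a site under the name of a neighbour within 1000 bp of their start, with medians of 115.8 in GPS2 KO cells and 113.5 in WT cells. The other 987 had 20.5 in GPS2 KO cells and 19.6 in WT cells.

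Sites and RNA moved in the same direction more often than not. RNA was tested for 9293 genes with a promoter site, of which 3004 were higher and 2958 lower in GPS2 KO cells, 64.2% (32.3% higher and 31.8% lower), against 62.8% of all 11478 genes tested (31.8% higher and 31% lower). Since so many pass, a gene with a called site is read against these shares. With all 16 RNA libraries of the table, LPS-treated ones included, in 1 fit, 1750 were higher and 1687 lower. Scaling by library totals split all tested genes into 2751 higher and 4618 lower, against 3651 and 3562, with a shift of the median of -0.078 on the log2 scale. Of 205 genes with a promoter site called higher, 147 had higher RNA, 25 lower and 33 were not called, with a median log2 change of 0.58. Of 285 genes with a site called lower, 45 had higher RNA, 169 lower and 71 were not called, with a median of -0.37. Among the 8801 genes without a called site 2811 were higher and 2763 lower, with a median of 0.003. Changes of at least 1 on the log2 scale in the direction of the site were found in 81 of the 205 and 84 of the 285. They were found in 278 (higher) and 155 (lower) of the 8801.

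Among called sites that differed by at least 0.2, the RNA followed the direction of the site more often the larger the difference was. For gains, RNA was higher in 77 of 120 genes with a difference of 0.2 to 0.3, in 38 of 47 with 0.3 to 0.4 and in 29 of 32 with 0.4 or more. For losses, RNA was lower in 73 of 160, 46 of 65 and 41 of 46 genes of the same ranges. The few called sites that differed by less than 0.2 had higher RNA in 3 of 6 genes with a gain and lower RNA in 9 of 14 genes with a loss, a larger share than for losses of 0.2 to 0.3. Only 1 gene with a loss of 0.4 or more had higher RNA, and 2 with a gain of 0.4 or more had lower RNA. CpG-poor promoters that gained had a median RNA change of 0.95 (114 genes) and CpG-rich ones 0.35 (91 genes). Those that lost had -0.58 (89 genes) and -0.34 (196 genes). Across 9661 sites of tested genes the correlation of site difference and RNA change was 0.184 (Spearman) and 0.370 (Pearson), and among the 497 called ones 0.692 and 0.677, given as descriptions across sites.

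**Figure D3:**
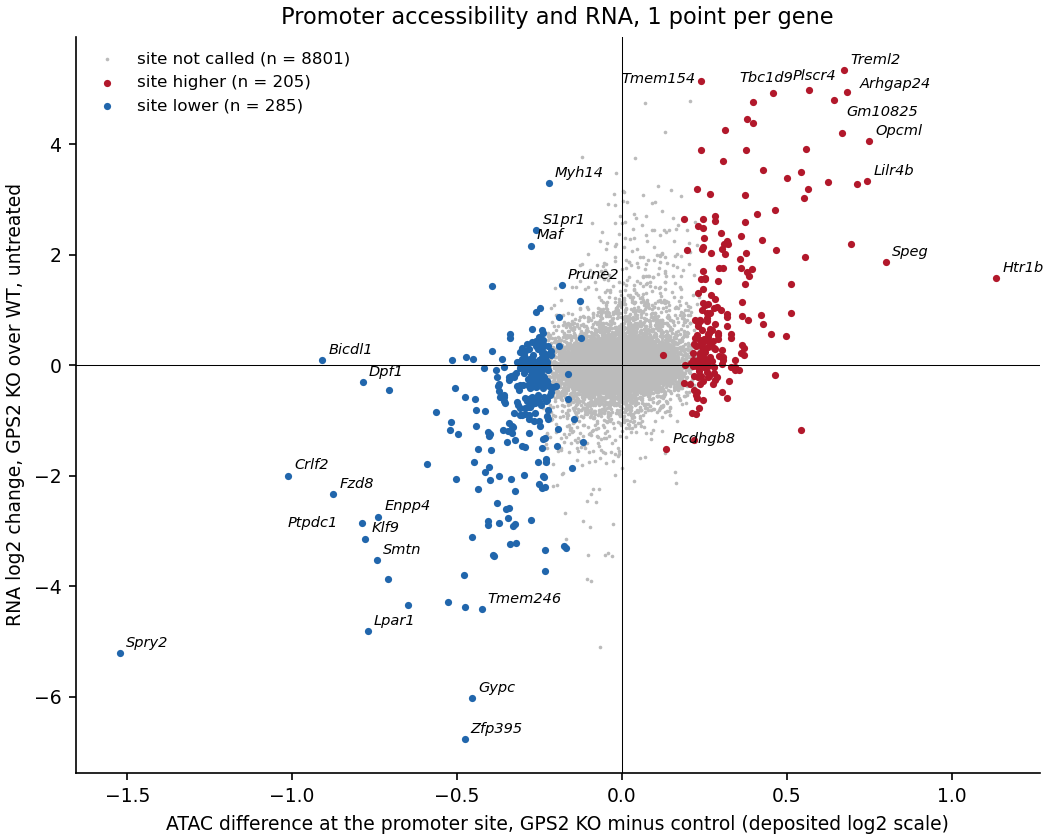
ATAC-seq difference at the promoter site (x axis, GPS2 KO minus control, deposited log2 scale, and for genes with several sites the one with the largest absolute difference) against the RNA log2 change (y axis, GPS2 KO over WT, untreated), 1 point per tested gene. Red points are the 205 genes with a site called higher, blue the 285 with a site called lower, grey the 8801 with none called, and 2 genes with sites called in both directions are not drawn. Most red points lie above 0 and most blue points under it.

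Read from the RNA side, a called promoter was common only where the RNA change was large. Of 122 genes whose RNA was higher by 2 or more on the log2 scale, 52 (42.6%) had a site called higher and 3 a site called lower. With an RNA gain of 1 to 2 the counts were 29 and 4 of 244, and with a gain under 1 they were 66 and 38 of 2638. Of 66 genes whose RNA was lower by 2 or more, 45 (68.2%) had a site called lower and 0 a site called higher. With an RNA loss of 1 to 2 the counts were 39 lower and 3 higher of 176, and with a loss under 1 they were 85 and 22 of 2716. So most genes with changed RNA had no called change at the promoter.

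**Figure D4:**
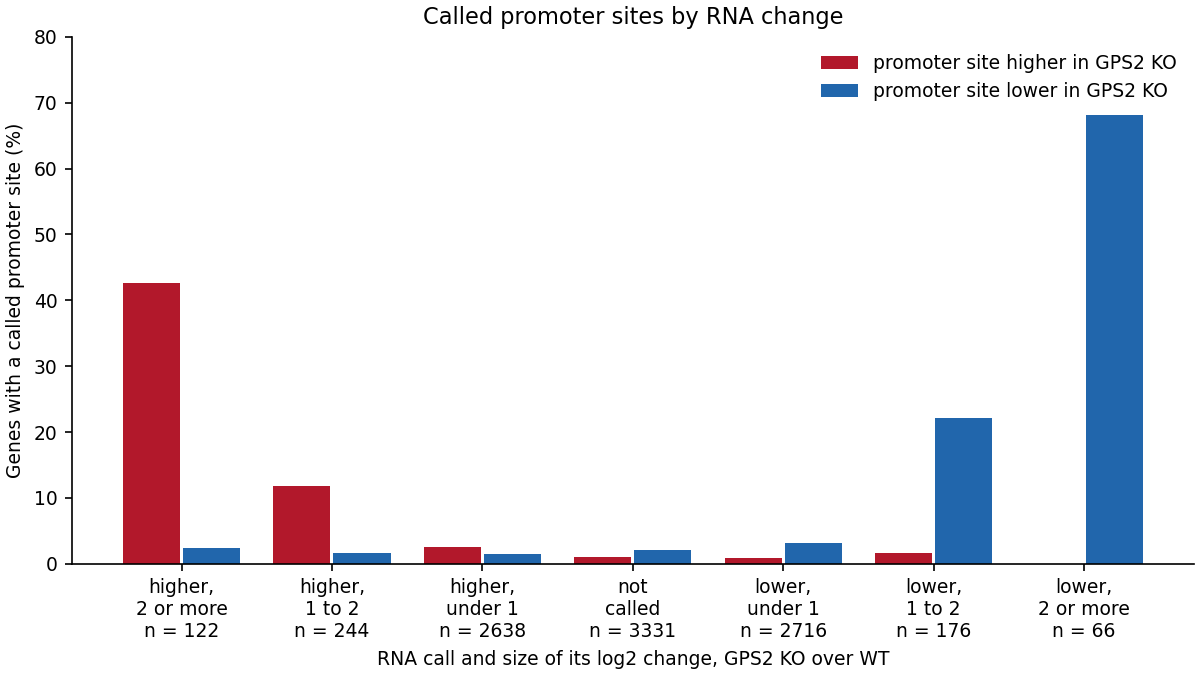
Percent of tested genes with a promoter site called higher (red) or lower (blue) in GPS2 KO cells, by the call and the size of the RNA log2 change (x axis, GPS2 KO over WT), with the number of genes in each class. The share is highest at both ends, 42.6% for RNA gains of 2 or more and 68.2% for RNA losses of 2 or more.

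Among genes whose site and RNA were both called higher, the largest RNA changes were those of Treml2, Tmem154, Plscr4, Arhgap24 and Tbc1d9, in that order. Tmem154, a transmembrane protein, had RNA of 439 ± 2.38 in GPS2 KO cells and 11.8 ± 3.85 in WT cells and a site difference of 0.24 (SE 0.081, adjusted p = 0.0456). Plscr4, a phospholipid scramblase, had RNA of 154 ± 13.7 in GPS2 KO cells and 4.16 ± 1.94 in WT cells and a site difference of 0.57 (SE 0.079, adjusted p = 2.04e-09). Tbc1d9, of a family of Rab GTPase-activating proteins, had RNA of 99.2 ± 9.32 in GPS2 KO cells and 2.28 ± 0.516 in WT cells and a site difference of 0.46 (SE 0.079, adjusted p = 2.96e-06). The Tmem154 call was lost without GPS2 KO replicate 2 or 3 or control replicate 1 or 2 (adjusted p up to 0.258), and without the trend of the spread or robust moderation.

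On the other side stood Zfp395, Gypc and Tmem246 beside Spry2 and Lpar1. The zinc finger gene Zfp395 had RNA of 0, 0, 1.104 and 0 in GPS2 KO cells, against 137, 127, 132 and 127 in WT cells, 2 reads in all against 966, a 490-fold lower level with an exact 95% interval for counting error of 135.3 to 4053, and its site differed by -0.48 (SE 0.068, adjusted p = 5.84e-09). Gypc, which encodes the membrane sialoglycoprotein glycophorin C, had RNA of 1.24 ± 0.565 in GPS2 KO cells and 142 ± 7.32 in WT cells and a site difference of -0.45 (SE 0.070, adjusted p = 9.79e-08). Tmem246, an enzyme that modifies glycolipid anchors, had RNA of 0.906 ± 0.818 in GPS2 KO cells and 37.0 ± 4.66 in WT cells and a site difference of -0.43 (SE 0.078, adjusted p = 1.48e-05). These transcripts were close to absent in GPS2 KO cells with mean site levels of 3.61, 3.74 and 4.54, and the sites of Zfp395 and Gypc were called as peaks in control cells only.

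In 70 genes site and RNA were called in opposite directions. RNA was lower in 25 of the 205 genes with a site called higher (12.2%), against 31.8% of all genes with a promoter site. It was higher in 45 of the 285 with a site called lower (15.8%), against 32.3%. The largest RNA changes among the 70 were those of Myh14, a non-muscle myosin heavy chain, S1pr1, a receptor for sphingosine 1-phosphate, the transcription factor gene Maf, Prune2 and the protocadherin Pcdhgb8. Myh14 had site levels of 3.84, 3.79 and 3.83 in the GPS2 KO libraries, against 4.02, 4.05 and 4.05 in the control libraries, yet RNA of 68.7 ± 4.13 in GPS2 KO cells and 6.57 ± 2.69 in WT cells. S1pr1 had site levels of 5.77, 5.93 and 5.66 in the GPS2 KO libraries, against 5.98, 6.16 and 6.00 in the control libraries, and RNA of 112 ± 12.9 in GPS2 KO cells and 20.0 ± 5.21 in WT cells. Maf had 5.53, 5.64 and 5.80 in the GPS2 KO libraries, against 5.79, 5.95 and 6.05 in the control libraries, with 1 GPS2 KO library above 1 control library, and RNA of 80.4 ± 4.87 in GPS2 KO cells and 17.1 ± 1.05 in WT cells. Prune2 differed by -0.18 at the site and 1.46 in RNA, and Pcdhgb8, whose transcripts share exons with their neighbours, by 0.13 and -1.52. These site differences are small: with 1 library left out the Myh14 call was lost for each of the 6 libraries (adjusted p from 0.057 to 0.100). S1pr1 and Maf were lost for 4 libraries (without GPS2 KO replicate 1 or control replicate 2 or 3, and without GPS2 KO replicate 3 for S1pr1 and 2 for Maf; up to 0.204 and 0.177). Prune2 was lost without GPS2 KO or control replicate 1 or 3 (up to 0.166) and Pcdhgb8 without replicate 2 of either group or control replicate 3 (up to 0.249). The count of 70 fell to between 30 and 46 without any 1 ATAC-seq library.

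Eps8 and Gramd1b each had promoters that moved in opposite directions. At Eps8, an actin-capping signalling adaptor, the site at chr6:137468361-137469057 had 4.04, 4.06 and 3.92 in the GPS2 KO libraries, against 3.83, 3.75 and 3.56 in the control libraries, a difference of 0.30 (SE 0.069, adjusted p = 0.00130), and the site at chr6:137518934-137519900 had 5.99, 6.09 and 5.91 in the GPS2 KO libraries, against 6.45, 6.19 and 6.25 in the control libraries, a difference of -0.30 (SE 0.081, adjusted p = 0.00885). Eps8 RNA was 649 ± 23.6 in GPS2 KO cells and 887 ± 24.9 in WT cells. At Gramd1b, a sterol transporter between plasma membrane and endoplasmic reticulum, the site at chr9:40128607-40129498 had 7.47, 7.29 and 7.32 in the GPS2 KO libraries, against 6.81, 6.94 and 7.02 in the control libraries, a difference of 0.43 (SE 0.075, adjusted p = 3.91e-06). The site at chr9:40262698-40264002 had 6.82, 6.60 and 6.86 in the GPS2 KO libraries, against 7.09, 7.02 and 6.89 in the control libraries, a difference of -0.24 (SE 0.077, adjusted p = 0.0374), and Gramd1b RNA was 591 ± 22.4 in GPS2 KO cells and 424 ± 38.7 in WT cells. The RNA table gives 1 value per gene, so transcripts from the separate starts cannot be told apart. The Eps8 gain was lost without control replicate 3 (adjusted p = 0.083), the Eps8 loss without GPS2 KO replicate 3 or control replicate 1 (up to 0.163), and the Gramd1b loss without GPS2 KO replicate 2 or control replicate 1 or 2 (up to 0.306). With no trend of the spread both Eps8 calls (adjusted p = 0.062 and 0.066) and the Gramd1b loss (0.137) were lost. The Gramd1b loss was also lost with libraries centred on promoter sites (0.055) and with the trend on GC content and level removed (0.070).

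Several of the strongest RNA changes came with a promoter site that was not called. The sites of Gja1, Clu and Emp2 lie in the lowest of 4 bins of promoter sites by level, where the deposited scale compresses changes most. A missing call there does not show that a promoter was unchanged. Gja1, which encodes the gap junction protein connexin 43, had site levels of 3.96, 4.06 and 4.05 in the GPS2 KO libraries, against 4.10, 4.04 and 4.12 in the control libraries, overlapping, while its RNA averaged 2.01 ± 1.66 in GPS2 KO cells and 92.5 ± 11.2 in WT cells. Clu, the secreted chaperone clusterin, had site levels of 3.88, 3.85 and 3.74 in the GPS2 KO libraries, against 3.68, 3.77 and 3.82 in the control libraries, also overlapping, with RNA of 38.9 ± 5.69 in GPS2 KO cells and 0.533 ± 0.474 in WT cells. Cth, cystathionine gamma-lyase of cysteine synthesis, had a site difference of 0.13 (adjusted p = 0.358) and RNA of 771 ± 29.9 in GPS2 KO cells and 40.4 ± 2.28 in WT cells. Slpi, a secreted inhibitor of leukocyte proteases, had a site difference of 0.21 (adjusted p = 0.0619, called when libraries were centred on promoter sites) and RNA of 199.7 ± 17.9 in GPS2 KO cells and 6.34 ± 1.11 in WT cells. Emp2, an epithelial membrane protein, had -0.093 (adjusted p = 0.147), at a weak site of 1.94 in GPS2 KO cells and 2.03 in control cells, and RNA of 1.61 ± 1.16 in GPS2 KO cells and 36.2 ± 8.04 in WT cells.

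Of 21 promoter sites of cytokine and chemokine genes, 4 were higher and 1 lower, against 2.15% and 4.16% of all promoter sites, and the median difference was -0.039, against -0.014 over all of them. Their RNA was higher in 19 and lower in 4 of 25 tested genes, with a median log2 change of 0.96, where 31.8% of all tested genes were higher and 31% lower. The sites that were higher were those of the chemokine genes Ccl4 (0.56) and Ccl3 (0.39), of Tnf (0.42) and of Nos2, the inducible nitric oxide synthase. Tnf had site levels of 8.05, 7.86 and 7.88 in the GPS2 KO libraries, against 7.51, 7.49 and 7.52 in the control libraries, and RNA of 821 ± 24.4 in GPS2 KO cells and 435 ± 28.1 in WT cells. Ccl4 RNA was 1038 ± 33.9 in GPS2 KO cells and 265.4 ± 25.3 in WT cells. The site of the anti-inflammatory cytokine gene Il10 was lower (-0.41, SE 0.080, adjusted p = 6.22e-05), with RNA of 0.707 ± 0.273 in GPS2 KO cells and 5.15 ± 0.678 in WT cells, too few reads for the test. The genes Il1a, Il1b, Il1rn, Ccl5, Csf3, Cxcl1, Cxcl16, Ptgs2 and Saa3 had no site under their name within 1000 bp.

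Of 35 sites of interferon-stimulated genes 4 were higher and 0 lower, against 2.15% and 4.16% of all promoter sites (1 lower at an unadjusted p under 0.05, 0 without the trend of the spread). The neighbours Cmpk2 and Rsad2, a nucleotide kinase and the antiviral viperin, gained at the site (0.36 and 0.37) and in RNA (0.37 and 0.88). Oasl1 gained 0.35 at the site with RNA of 576 ± 31.3 in GPS2 KO cells and 611 ± 40.3 in WT cells, which was not called. Zbp1, a sensor of Z-form nucleic acid, gained 0.30 at the site while its RNA was lower at 23.3 ± 1.73 in GPS2 KO cells and 33.1 ± 5.33 in WT cells. The Cmpk2 site call was lost (adjusted p = 0.065) when the spread was fitted with no trend. The Zbp1 site call was lost without GPS2 KO replicate 2 or control replicate 1 (adjusted p up to 0.102). In RNA 12 of 36 genes of the list were higher and 6 lower, with a median of 0.036, and the share that was higher is near the 31.8% of all tested genes.

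In the integrated stress response, the programme of ATF4, the median RNA log2 change was 1.02, against 0.006 over all tested genes. RNA was higher in 23 of 23 tested genes of the list, where 31.8% of all tested genes were higher. Only 3 of their 23 promoter sites were called, all higher, where 2.15% of all promoter sites were: Slc7a11, the cystine transporter (0.27, SE 0.082, adjusted p = 0.0264), the stress-induced Ddit4 (0.25, SE 0.074, adjusted p = 0.0226) and the seryl-tRNA synthetase gene Sars (0.22, SE 0.073, adjusted p = 0.0393). Slc7a11 RNA was 1442 ± 22.3 in GPS2 KO cells and 167 ± 19.1 in WT cells. The median site difference of the list was 0.081. These 3 calls were lost without control replicate 1 (adjusted p up to 0.349, 0.285 and 0.214 over the libraries left out). They were also lost without the trend of the spread on the mean, Slc7a11 and Sars also without replicate 3 of either group, Sars without replicate 2 of either group, and Ddit4 without GPS2 KO replicate 1 or 2.

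In the list of lysosomal genes RNA was higher in 20 and lower in 1 of 26 genes, with a median of 0.52, where 31.8% of all tested genes were higher. Of 25 sites 2 were higher, against 2.15% of all promoter sites, those of Gpnmb and of the protease gene Ctsd (0.23, SE 0.077, adjusted p = 0.0450). Ctsd RNA was 30771 ± 910.4 in GPS2 KO cells and 12394 ± 288 in WT cells. The Ctsd site call was lost without any 1 of the 3 GPS2 KO libraries or control replicate 1 or 2 (adjusted p up to 0.225) and without the trend or robust moderation, which leaves Gpnmb. The median site difference of the list was 0.008.

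Of 25 sites of macrophage identity genes 1 was higher and 4 lower, in a set of promoter sites where lower calls outnumber higher ones (488 and 252 of 11732). Between 1 and 4 were lower with 1 library left out, and the median was -0.059. RNA was higher in 11 and lower in 8 of 22, where 31.8% of all tested genes were higher and 31% lower. Cd36, the scavenger receptor for oxidised lipoproteins, had site levels of 4.26, 4.11 and 4.26 in the GPS2 KO libraries, against 4.85, 4.88 and 4.84 in the control libraries, a difference of -0.65 (SE 0.076, adjusted p = 5.35e-13), and RNA of 121 ± 16.8 in GPS2 KO cells and 2443 ± 111 in WT cells. Neither readout overlapped between genotypes. Lyz2, encoding lysozyme, gained accessibility (0.27, SE 0.077, adjusted p = 0.0159) with RNA of 83802 ± 3511 in GPS2 KO cells and 56086 ± 3764 in WT cells. The sites of Klf4 and, as given above, Maf were lower as well. Lyz2 was not called without replicate 1 or 2 of either group (adjusted p up to 0.170). In the list of LXR and cholesterol efflux genes 1 of 18 sites was higher and 3 were lower (1 to 3 with 1 library left out), Cd36 being a member of both lists, and RNA was higher in 4 and lower in 11 of 17. Fabp4, a fatty acid-binding protein, had site levels of 3.87, 3.76 and 3.83 in the GPS2 KO libraries, against 3.42, 3.40 and 3.44 in the control libraries, and RNA of 258 ± 9.25 in GPS2 KO cells and 11.4 ± 0.239 in WT cells. The losses were Cd36, the phospholipid transfer protein gene Pltp (-0.28, SE 0.081, adjusted p = 0.0181) and Rxra, the partner receptor of LXR (-0.23, SE 0.072, adjusted p = 0.0326). Pltp was not called without GPS2 KO replicate 1 or 2 or control replicate 2, nor Rxra without GPS2 KO replicate 2 or 3 or control replicate 1 or 3 (up to 0.328 and 0.176).

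In the corepressor complex itself, 2 of 4 sites were lower, where 4.16% of all promoter sites were. These were the sites of Tbl1xr1 (-0.30, SE 0.080, adjusted p = 0.00629) and Ncor1 (-0.24, SE 0.074, adjusted p = 0.0275), whereas the RNA of both genes was higher. Ncor1 had site levels of 7.13, 7.28 and 7.10 in the GPS2 KO libraries, against 7.42, 7.44 and 7.37 in the control libraries, and RNA of 1835 ± 31.2 in GPS2 KO cells and 1401 ± 148 in WT cells. Tbl1xr1 RNA was 1194 ± 15.4 in GPS2 KO cells and 963 ± 75.8 in WT cells. Both site calls were lost without control replicate 1, Tbl1xr1 also without GPS2 KO replicate 2, and Ncor1 for 5 of the 6 libraries, all but GPS2 KO replicate 2 (adjusted p up to 0.078 and 0.125). With all 16 RNA libraries in 1 fit Ncor1 RNA was not called.

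Of 43 sites of cytosolic ribosomal protein genes limma called 0 (4 higher and 0 lower at an unadjusted p under 0.05, 1 higher without the trend of the spread), while RNA was lower in 37 and higher in 3 of 55 genes, with a median of -0.21. Many of these genes have near-identical processed pseudogenes, so their reads may be split. Of 25 cell cycle sites 0 were called (2 higher and 5 lower unadjusted), with RNA lower in 16 and higher in 5 of 30. Beside the RNA counts of each list here stand 31% lower and 31.8% higher over all tested genes. Over all promoter sites 2.15% were called higher and 4.16% lower. Of 21 cholesterol synthesis sites 0 were called (0 higher and 1 lower unadjusted), with RNA lower in 17 and higher in 1 of 23. Of 25 glycolysis and hypoxia sites 0 were called (4 higher and 1 lower unadjusted), with RNA lower in 16 and higher in 4 of 22. Of 26 oxidative phosphorylation sites 1 was lower, that of the complex III subunit gene Uqcrc2 (-0.27, SE 0.077, adjusted p = 0.0114, lost without GPS2 KO replicate 3 or control replicate 1, at up to 0.096), with RNA lower in 15 and higher in 2 of 32. With all 16 RNA libraries in 1 fit these RNA counts fell to 8 lower for ribosomal proteins, 9 for cholesterol synthesis and 3 for oxidative phosphorylation.

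Of 12 sites of AP-1 genes 0 were called (1 higher and 1 lower unadjusted, 0 without the trend), with RNA higher in 3 and lower in 7 of 11. Of 20 sites of NF-kB and feedback genes 1 was higher, Relb (0.22, SE 0.069, adjusted p = 0.0280, lost for each library left out but GPS2 KO replicate 2, at up to 0.126), with RNA of 157 ± 13.8 in GPS2 KO cells and 149.9 ± 13.4 in WT cells. RNA of that list was higher in 5 and lower in 9 of 21. For both lists the shares over all tested genes were 31.8% higher and 31% lower. Over all promoter sites they were 2.15% and 4.16%. Sites of lymphocyte (1), granulocyte and dendritic (7) and fibroblast and epithelial (2) markers had 0 calls (1 higher, 1 lower and 1 lower unadjusted, 0 without the trend).

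**Figure D5:**
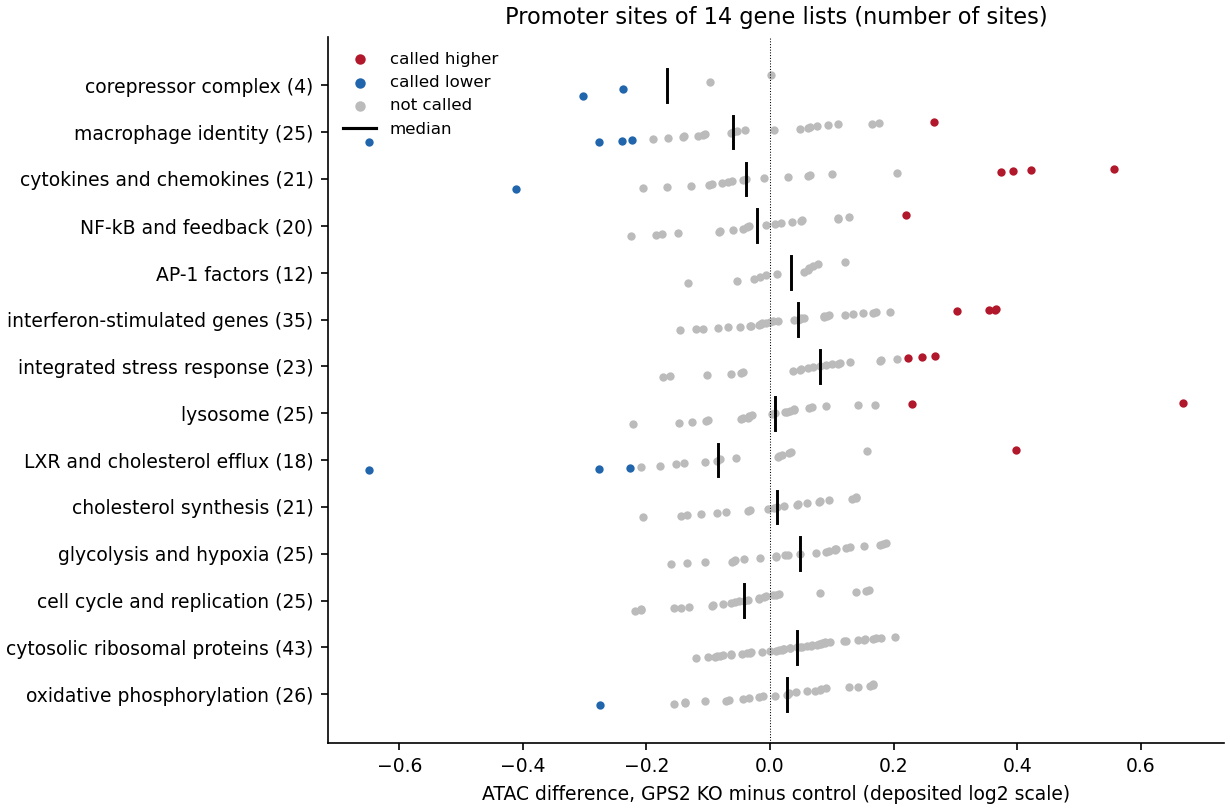
ATAC-seq difference (x axis, GPS2 KO minus control, deposited log2 scale) of every promoter site of 14 gene lists, with the number of sites in parentheses. Red and blue points are sites called higher and lower, grey points are not called, and black bars are medians. Each median lies within 0.2 of 0.

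PU.1, the ETS factor that defines macrophages, and the AP-1 subunit JunB gave a second readout at these sites. Both PU.1 libraries of a group differed by no more than the sampling noise (chi-square per peak of 0.957 in GPS2 KO and 0.881 in WT cells), as did the JunB libraries of WT cells (0.985), while those of GPS2 KO cells differed by more than it (1.18). The libraries of a group were averaged and counted as 1 sample, so these values have no test. A PU.1 peak overlapped 52.0% of promoter sites by at least 1 bp, 53.2% of the sites that were higher and 36.7% of those that were lower. For JunB the shares were 57.3%, 67.5% and 32.8%. At distal sites they were 46.2% for PU.1 and 45.7% for JunB. The median log2 ratio of PU.1 signal, GPS2 KO over WT, was -0.51 at peaks on promoter sites, against -0.54 over all PU.1 peaks. It was -0.35 at promoters that were higher and -0.69 at those that were lower. JunB signal ran the other way at promoters, with a median of 0.48, against -0.28 over all JunB peaks and -0.37 at distal sites. The median was 0.31 at promoters that were higher, 0.17 at those that were lower and 0.49 at those not called. At CpG-rich promoters it was 0.65 and at CpG-poor ones 0.058.

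Short motifs were searched on both strands within the 200 bases at the centre of each site, 11721 promoter and 61384 distal sites. The AP-1 motif TGANTCA stood in 8.76% of promoters that were higher, 4.71% of those that were lower and 3.93% of all promoters, against 15.7% of all distal sites. Within CpG-poor promoters it was in 11.5% of those that were higher and 9.79% of those that were lower (7.28% of all CpG-poor ones). Within CpG-rich promoters it was in 4.26% and 2.61% (2.04% of all CpG-rich ones). The GC box GGGCGGGG of Sp1 and KLF factors stood in 16.7%, 16.4% and 16.5%, against 1.43% of distal sites. Within CpG-rich promoters the GC box was in 40.4% of the 94 that were higher and 19.4% of the 345 that were lower (21.6% of all CpG-rich ones). Within CpG-poor ones it was in 2.55% of the 157 that were higher and 9.09% of the 143 that were lower (7.40% of all CpG-poor ones). The ETS motif CCGGAAGT was in 1.99%, 0.615% and 3.69%, against 0.412% of distal sites, and the PU.1 motif GAGGAAGT in 2.39%, 2.25% and 2.00%, against 7.18%. The C/EBP-ATF element TGATGNAA was in 2.79%, 1.02% and 1.29%, against 3.45%, the TATA box TATAAA in 5.18%, 2.25% and 3.22%, against 10.5%, and CCAAT in 14.7%, 21.1% and 21.8%, against 21.9%. The numbers are small for rare motifs: the C/EBP-ATF element was found in 7 of 251 promoters that were higher. The CRE motif TGACGTCA was in 1.33% of all promoters, and the MiT/TFE motif TCACGTGA in 0.623%, and the longer NF-kB, NRF1 and CTCF motifs were in 0.921%, 0.657% and 0.333%. The PU.1 and ETS motifs share the bases GGAAGT, and a match shows only that the letters are present. In the printed windows these searches found the C/EBP-ATF element at AU022793, CRE and GC box at Flt1 and PU.1 and TATA letters at Htr1b.

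A limit of these comparisons is depth. The ATAC-seq libraries had 4038814.5 to 7108592.5 mapped reads by the table's header, and the deposited levels no longer show counts, so no counting interval can be given. RNA-seq libraries had 15195567 to 21264251 mapped reads. The number of promoter calls depends on single libraries: without control replicate 1 the sites that were higher numbered 147 in place of 252, and without control replicate 2 those that were lower numbered 323 in place of 488. Genes with both site and RNA higher numbered 93 in place of 147 without control replicate 1.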

How the data were processed

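The authors deposited ATAC-seq levels on a log2 scale, 1 column per library, made with HOMER from merged MACS2 peaks, per the file headers. The name of the transformation is not given in the sources used here. Their log2 fold change and adjusted p-value stand in the same deposited table and were used as an alternative. RNA-seq values per RefSeq transcript and ChIP-seq values per peak were deposited by the authors as reads scaled to 10000000 mapped reads, per the file headers. All RNA and ChIP values up to 200 reads were whole reads within 0.05 (100%). Bowtie2, BWA, HISAT2, DESeq2 and edgeR are named in the submitters' processing notes without roles. The build is mm9. Columns of other samples in these tables (16) were not used, and neither were the deposited tables of MED1 and RNA polymerase II ChIP-seq. The RNA table shows 22 symbols as dates, and these rows took the symbol in its annotation column.

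Sites were tested with limma 3.58.1 in R 4.3.3 (trend, robust moderation) on the deposited levels of the 6 libraries. RNA was divided by TMM factors and tested with limma on log2(value + 1) over the 8 untreated libraries, for genes with 10 reads at the median depth in 4 libraries and 15 in all. Such fold changes understate low genes. RNA levels between genes are per kilobase. All tests were two-sided and checked on simulated data, with a threshold of 0.05 on p adjusted by Benjamini-Hochberg over every site or gene fitted. A count test had been planned for raw counts and was not run. Python 3.11.15, pandas 2.3.3, numpy 2.4.6, scipy 1.17.1, matplotlib 3.10.9 and bedtools 2.31.1 did the rest. Overlaps need 1 bp. GC content, CpGs, motifs and printed windows were read from the mm9 (NCBIM37) genome.

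The members and lists were chosen with earlier results of these data known. Named genes are the 10 largest gains and losses among called sites with separate groups and a tested gene, the 5 brightest and weakest sites, the 5 largest RNA changes with a site called in the same direction (each way), in the opposite direction and not called, up to 4 called members per list, and the sites at the 1000 bp limit. AU022793, Klf4, Nos2, Eps8, Gramd1b, Csf3r, Lck, Ms4a1, Pdgfra, S100a8, Itgax, Zbtb46 and Csf1r were named after their values were seen. The result of 1 named gene is not reported here.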

Additional observations from a re-analysis of the deposited data

Results flagged for a closer look

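In 138 groups of 4 RNA-seq libraries (69 named genes), 7 held a library far from the other 3 by Dixon's test. Chance flags about 1 in 20 groups, so this number is not a pattern. The values, in normalised reads per 10000000 mapped reads, are these. Fabp4 RNA in WT replicate 4 was 11.0, against 11.5 in the others. Gm10825 RNA in GPS2 KO replicate 1 was 64.7, with the others between 69.0 and 69.7. Myh14 RNA in WT replicate 2 was 2.55, with the others between 7.64 and 8.08. Sfi1 RNA in WT replicate 4 was 679.2, with the others between 654.1 and 655.7. Slc7a11 RNA in GPS2 KO replicate 3 was 1475, with the others between 1428 and 1432. Treml2 RNA was 1.15 in WT replicate 1 and 0 in the other WT libraries, and Zfp395 RNA was 1.104 in GPS2 KO replicate 3 and 0 in the other GPS2 KO libraries.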

How the results depend on the processing

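No called difference of a named site or gene changed sign, while the RNA split of genes with a promoter site, 3004 higher and 2958 lower, became 2269 and 3853 with library totals and 2956 and 3005 with median-of-ratios size factors. With 1 library left out, some differences that were not called changed sign, among them the RNA of Bicdl1. Of the values of named sites and genes under the other settings, 1060 kept their call, 33 lost it and 10 gained it, and with 1 library left out 949, 82 and 1 did. Of the counts, shares and medians, 664 stayed within 1.5 times or within the replicate spread and 77 moved, and with 1 library left out 478 stayed and 68 moved. The causes were not tested. The planned edgeR test was not run, and limma voom on the recovered reads, chosen after seeing the data, took its place (3651 higher and 3548 lower of all tested genes, against 3651 and 3562).

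Without the trend of the spread on the mean, 156 promoter sites were higher and 278 lower. By the authors' deposited adjusted p they were 71 and 129, and with a difference of at least 0.5, 25 and 37. Site and RNA were both higher, both lower or opposite in 95, 111 and 32 genes without the trend, and in 52, 61 and 6 by the authors' deposited p. With all 16 RNA libraries in 1 fit, 1750 genes with a promoter site were higher and 1687 lower, and 36 were opposite. Without division by length, median RNA in the lowest and highest of 4 bins of site level was 42.8 and 523.1 in GPS2 KO cells and 37.0 and 528.0 in WT cells. With the site nearest to the start the lowest bin was 13.7 in WT cells. The share of calls that were higher was 44.9% at promoters and 74.1% at distal sites with libraries centred on promoters, and 46.7% and 56.2% with the trend on GC content and level removed. With overlap over at least 50% of the site, PU.1 overlapped 5.56% of higher, 2.87% of lower and 4.08% of all promoter sites, and JunB 10.3%, 2.87% and 8.96%. At distal sites the share was 17.1% for PU.1 and 17.1% for JunB. In 100 bases the AP-1 motif was in 3.98% of higher and 1.64% of lower promoters and the GC box in 10.8% and 10.2%, and in 300 bases the GC box was in 21.9% of the lower ones.

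In the gene lists, with all 16 RNA libraries in 1 fit, RNA was higher in 1 and lower in 1 corepressor gene, higher in 3 NF-kB, 1 cell cycle, 1 ribosomal and 0 oxidative phosphorylation genes, and lower in 9 cholesterol synthesis, 8 ribosomal, 3 oxidative phosphorylation and 0 granulocyte and dendritic genes. Without the trend, 1 corepressor, 2 macrophage, 2 cytokine and 1 LXR sites were lower, and 0 macrophage, 0 stress response, 1 lysosomal and 1 ribosomal sites higher. By the authors' deposited p, 0 corepressor, 1 macrophage, 1 LXR and 0 oxidative phosphorylation sites were lower, and 0 macrophage, 0 NF-kB, 2 interferon, 0 stress response and 1 lysosomal sites higher. Within 500 bp, 2 cytokine sites were higher and 0 lower, and within 2000 bp 1 NF-kB and 1 ribosomal site were lower. Higher sites numbered 1 lysosomal and 1 glycolysis without robust moderation, 1 glycolysis when centred or without the weakest of 4 bins of all sites, and 1 AP-1 and 2 glycolysis with the trend on GC content and level removed. Scaled by library totals, RNA was lower in 3 lysosomal and higher in 2 cell cycle, 1 oxidative phosphorylation and 0 fibroblast and epithelial genes.

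With 1 library left out, 147 to 191 promoter sites were higher and 323 to 388 lower, RNA was higher in 2782 to 2971 genes and lower in 2772 to 2969, and site and RNA were both higher in 93 to 147, both lower in 124 to 172 and opposite in 30 to 75. In the lists, sites lower numbered 0 to 1 (corepressor, NF-kB, cell cycle, lysosome, oxidative phosphorylation, fibroblast and epithelial), 1 to 4 (macrophage) and 1 to 3 (LXR). Sites higher numbered 0 to 1 (macrophage, NF-kB, glycolysis), 0 to 2 (stress response), 1 to 2 (lysosome) and 3 to 4 (interferon). RNA higher numbered 3 to 6 (cell cycle), 2 to 5 (ribosomal), 1 to 4 (oxidative phosphorylation) and 0 to 1 (fibroblast and epithelial), and RNA lower 1 to 2 (corepressor) and 0 to 1 (granulocyte and dendritic).

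Replicate numbers do not pair the samples: same-numbered libraries correlated in their deviations at -0.005 to -0.001 in ATAC-seq and -0.047 to 0.072 in RNA-seq. With a replicate block 249 promoter sites were higher and 482 lower, RNA was higher in 3016 and lower in 2974 genes, and RNA of 4 oxidative phosphorylation genes was higher.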
